A study of Mus musculus with 20 samples.

Results

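The 74 genes described here are the cyclins of the A, B, D and E families, the cyclin-dependent kinases (CDKs) and their inhibitors, the Cdc and Mcm genes, the E2F factors, and the Aurora and polo-like kinases. The rule takes them by gene name from the 27827 names of an Agilent whole mouse genome array and leaves out Cdkn1a and Cdc42. Some genes, such as Cdc37, Cdc73 and Cdkn2aip, enter by the start of their name without being a cyclin, a CDK or a CDK inhibitor. All the arrays measured whole kidney RNA of male C57BL/6 mice aged 8 to 12 weeks, with 4 arrays in each of 5 groups. For Control mice neither surgery nor treatment is recorded. IRI mice had both renal pedicles clamped for 45 min and were killed after 6 h of reperfusion. IRI+Hemin mice received Hemin, an inducer of heme oxygenase 1, at 25 mg/kg intraperitoneally 24 h before the same ischemia, and Hemin mice received this dose alone. IPC+IRI mice had 15 min of renal ischemia (ischemic preconditioning, IPC) 7 days before the same 45 min of ischemia. The labels name no transgene or deleted gene and no sham surgery. Without a sham group, ischemia cannot be told apart from the anesthesia and surgery that went with it.

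A level is given as log2 expression, the log2 of the processed signal after division by the array's 75th percentile, so that 0 lies at that percentile. The calls rest on a linear model over the 20 arrays, with a threshold of 0.05 on the adjusted p, and each log2 fold change is given ± its standard error. Groups of 4 arrays that did not overlap had an exact permutation p of 0.029, the smallest that a two-sided test of 4 against 4 can give. The markers of kidney tissue stood on every array: all 4 genes of the proximal tubule, all 3 of the thick limb and distal tubule and both of the collecting duct were well above background on all 20 arrays. Between 57.4% and 67.4% of the genes were well above background on an array. The group medians of the 75th percentile of the processed signal lay between 204 and 293.4, lowest for Control and highest for IRI+Hemin. The arrays of each group were scanned in a run of their own, and the effects of scan run and group cannot be told apart. Scanning took 3 days, and only IRI vs Control and IPC+IRI vs Hemin compared arrays scanned on the same day. The latter pair differs in hemin, preconditioning and ischemia together, and is given as a value within 1 scan day. The labels do not say whether the arrays of a group came from separate mice, and the p-values measure only the spread between arrays. In whole tissue, fewer cells of a type and less RNA per cell cannot be told apart.

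Cyclins bind and activate CDKs in turn. D cyclins with Cdk4 and Cdk6 open the G1 phase, E and A cyclins with Cdk2 drive entry into and passage through DNA replication, and A and B cyclins with Cdk1 drive mitosis. The INK4 inhibitors (Cdkn2a to Cdkn2d) block Cdk4 and Cdk6, and the Cip/Kip inhibitors (Cdkn1b and Cdkn1c among them) block CDK complexes more broadly. E2F factors, held in check by the retinoblastoma family, switch on replication genes such as those of the Mcm helicase. Most tubule cells of an adult kidney are quiescent, and surviving tubule cells divide after ischemic injury.

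Of the 74 genes, 54 were well above background on all 20 arrays, 15 on some of them and 5 (Ccnb1ip1, Ccnb3, Cdc20b, Cdkn2a and E2f8) on none. A gene was tested in a comparison where it stood well above background on at least 3 of the 4 arrays of a group. In at least 1 comparison 65 genes were tested, and the 9 tested in none were Aurkb, Ccna1, Ccnb1ip1, Ccnb3, Ccne2, Cdc20b, Cdc25c, Cdkn2a and E2f8. Because this filter can be passed through the brighter group alone, counts of the genes tested do not speak for the whole set.

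Promoters are shown for genes of the 3 patterns described below, mitotic (Ccnb2, Cdc20 and Aurka), replicative (Mcm3 and Mcm6) and higher in ischemic kidneys (Plk3). Each runs from 250 bases before to 50 bases after the annotated start of the gene in RefSeq on GRCm38.p6, 5′ to 3′ on the strand of the gene. Capitals mark matches, on either strand, to TTCCCGC and TTGGCGC (E2F-like), TTTGAA (the cell cycle homology region, CHR) and CCAAT.
Ccnb2, chr9:70421505-70421804, minus strand: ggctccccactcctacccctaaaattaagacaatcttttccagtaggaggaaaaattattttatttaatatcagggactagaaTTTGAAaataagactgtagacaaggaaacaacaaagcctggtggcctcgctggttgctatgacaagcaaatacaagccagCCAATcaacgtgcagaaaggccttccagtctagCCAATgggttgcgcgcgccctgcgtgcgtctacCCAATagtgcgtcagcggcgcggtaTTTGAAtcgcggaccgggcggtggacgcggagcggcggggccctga
Cdc20, chr4:118437294-118437593, minus strand: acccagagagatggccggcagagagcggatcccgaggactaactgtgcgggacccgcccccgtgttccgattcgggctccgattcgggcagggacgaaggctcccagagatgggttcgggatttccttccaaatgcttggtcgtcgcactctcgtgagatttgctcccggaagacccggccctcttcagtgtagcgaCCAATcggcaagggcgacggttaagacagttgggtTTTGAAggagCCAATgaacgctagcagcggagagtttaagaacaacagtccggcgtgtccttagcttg
Aurka, chr2:172370521-172370820, minus strand: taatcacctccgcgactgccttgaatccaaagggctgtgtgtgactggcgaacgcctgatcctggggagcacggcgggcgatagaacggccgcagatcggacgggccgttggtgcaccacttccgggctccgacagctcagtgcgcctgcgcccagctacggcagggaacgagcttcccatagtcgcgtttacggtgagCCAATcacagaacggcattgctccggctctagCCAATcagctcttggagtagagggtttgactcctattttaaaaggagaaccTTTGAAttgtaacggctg
Mcm3, chr1:20820263-20820562, minus strand: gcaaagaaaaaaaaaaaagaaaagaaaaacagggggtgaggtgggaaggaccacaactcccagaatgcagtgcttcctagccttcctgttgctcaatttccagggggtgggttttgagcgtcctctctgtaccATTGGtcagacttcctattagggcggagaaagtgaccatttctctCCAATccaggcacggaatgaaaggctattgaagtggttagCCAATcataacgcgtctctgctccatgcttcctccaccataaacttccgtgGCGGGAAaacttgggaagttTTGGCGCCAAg
Mcm6, chr1:128359656-128359955, minus strand: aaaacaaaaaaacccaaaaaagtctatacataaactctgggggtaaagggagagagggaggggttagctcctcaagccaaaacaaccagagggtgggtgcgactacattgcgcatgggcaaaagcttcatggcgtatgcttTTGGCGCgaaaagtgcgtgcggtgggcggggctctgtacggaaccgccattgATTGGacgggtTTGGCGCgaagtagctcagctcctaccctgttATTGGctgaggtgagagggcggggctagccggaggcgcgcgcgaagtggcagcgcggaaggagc
Plk3, chr4:117133914-117134213, minus strand: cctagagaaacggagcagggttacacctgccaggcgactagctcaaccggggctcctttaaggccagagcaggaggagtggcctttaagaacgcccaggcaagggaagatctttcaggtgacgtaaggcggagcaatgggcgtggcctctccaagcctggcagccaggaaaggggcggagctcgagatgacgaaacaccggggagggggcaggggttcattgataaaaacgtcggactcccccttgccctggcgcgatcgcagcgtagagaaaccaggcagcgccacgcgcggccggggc
The Ccnb2, Cdc20 and Aurka windows each held both TTTGAA and CCAAT, the Mcm3 and Mcm6 windows held E2F-like matches beside CCAAT, and the Plk3 window held none of the 4 motifs. Some other genes of these patterns differed: the Cdc25b and Ccnb1 windows lacked TTTGAA and the Mcm2 window lacked an E2F-like match. The Cdkn2b window held TTTGAA, while those of Cdk6 and Plk2 held none of the 4 motifs. RefSeq promoters were matched for 59 of the 74 genes, Cdc2a through its current symbol Cdk1, and some genes had more than 1, so that 69 windows were searched. An E2F-like match stood in 31.9% of these 69 windows and in 6.81% of all 32851 windows of the same length in the table. TTTGAA stood in 23.2% of the windows of the set and 17.9% of all, CCAAT in 55.1% and 37.4%, and TTTGAA together with CCAAT in 14.5% and 6.95%. Matches of different motifs overlapped in 3 of the 69 windows. The 10 genes with TTTGAA and CCAAT in the same window were Ccnb2, Cdc2a, Cdc20, Aurka, Plk1, Cdkn3, E2f2, E2f3, E2f8 and Mcm2. Of the 10 licensing and firing genes with a promoter, 7 had an E2F-like match. These matches describe letters only, and binding was not measured.

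IRI vs Control compared kidneys after 45 min of ischemia and 6 h of reperfusion, surgery included, with control kidneys. Of 60 genes tested, 6 were higher and 14 lower in IRI, or 10% and 23.3%, where 16.4% and 35% of all 17711 genes tested were higher and lower. The median change on the log2 scale was -0.185 over the 60 genes and -0.194 over all genes. At 2-fold or more, 4 genes (Plk3, Cdkn2b, Plk2 and Cdk6) were higher and 4 (Cdc25b, Ccna2, Aurkc and E2f6) lower by the fitted change, against 5.79% and 14.9% of all genes. For Aurkc, measured on no IRI array, only a fall of at least 1.56-fold is known. Of the 60 genes, 4 were measured on 3 or more arrays of only 1 group, and 1 of these (Aurkc) was among the 14 lower. The split of 6 higher and 14 lower was 5 and 4 without normalization between arrays, 9 and 11 after quantile normalization, and 2 and 13 in the deposited log2 matrix. Without Control replicate 1 the lower genes were 9.

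**Figure D1:**
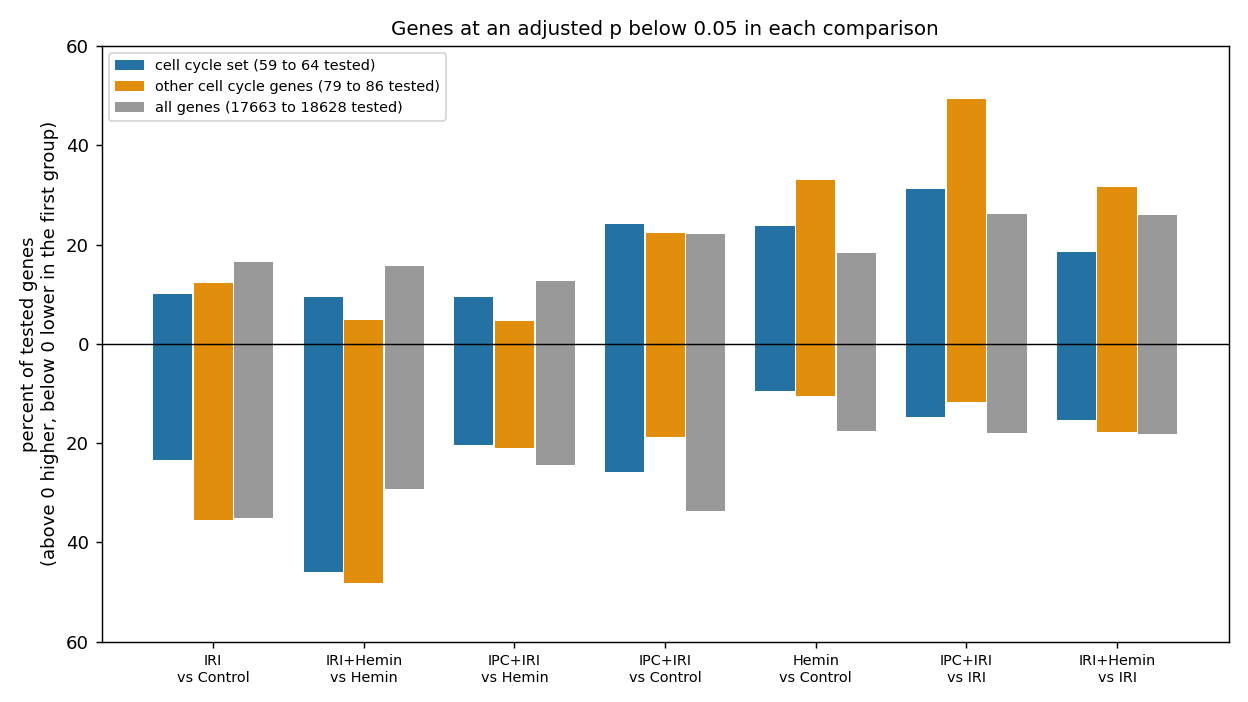
Share of tested genes at an adjusted p below 0.05 in each comparison, in percent, for the cell cycle genes, for a list of 93 other cell cycle genes and for all genes; bars above 0 are genes higher in the first group named and bars below 0 genes lower in it. The largest share of the set, 46%, was lower in IRI+Hemin vs Hemin, where 29.2% of all genes were lower.

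Plk3, a polo-like kinase of the stress response, had the largest rise of the 60 genes tested. Its log2 expression was 0.20, 0.57, 2.73 and 1.05 in Control and -0.12, 0.86, 0.38 and 1.77 in Hemin. It was 4.64, 5.79, 5.17 and 4.89 in IRI, 4.73, 4.05, 4.06 and 4.72 in IRI+Hemin and 5.39, 4.58, 4.82 and 4.09 in IPC+IRI. All 12 arrays of ischemic kidneys lay above all 8 of the others. The log2 fold change was 3.98 ± 0.467 in IRI vs Control (adjusted p = 2.54e-06), 3.67 ± 0.469 in IRI+Hemin vs Hemin (adjusted p = 1.17e-05) and 4.00 ± 0.469 in IPC+IRI vs Hemin (adjusted p = 6.26e-06). Between the ischemic groups it did not pass the test: the 95% confidence interval of the difference was -1.38 to 0.58 for IPC+IRI vs IRI and -1.71 to 0.25 for IRI+Hemin vs IRI.

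Plk2, a related polo-like kinase of centriole duplication and stress, rose in IRI vs Control and in IPC+IRI vs Hemin. Its log2 expression was -0.49, -1.09, -1.05 and -0.43 in Control, 0.55, 1.30, 0.25 and 0.05 in IRI and 0.72, 0.33, 0.14 and 0.07 in IPC+IRI. In IRI+Hemin it was -0.45, -0.68, -0.58 and -0.07, and in Hemin -0.90, -1.27, -1.29 and -0.40. The arrays of IRI lay above those of Control and of IRI+Hemin without overlap. Plk2 was higher in IRI than in Control by 1.30 ± 0.258 (adjusted p = 4.33e-04) and in IPC+IRI than in Hemin by 1.28 ± 0.259 (adjusted p = 9.85e-04), and lower in IRI+Hemin than in IRI (log2 fold change -0.98 ± 0.258, adjusted p = 0.00522). The difference of 0.52 in IRI+Hemin vs Hemin did not pass (adjusted p = 0.11, 95% confidence interval -0.02 to 1.06), and neither did the interaction of ischemia with hemin ( -0.78 ± 0.367, adjusted p = 0.22). The fall in IRI+Hemin vs IRI was not past the threshold without normalization between arrays (-0.61, adjusted p = 0.095). Plk1, the kinase of mitotic entry, and Plk4, of centriole duplication, gave log2 fold changes of 0.07 and -0.15 in IRI vs Control, neither past the threshold.

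Cdkn2b (p15, an INK4 inhibitor) had the next largest rise. Its log2 expression was -1.96, -2.23, -3.09 and -2.73 in Control, 0.41, -0.67, -0.36 and 0.00 in IRI and 0.11, -0.07, 0.24 and 0.26 in IRI+Hemin. It was -0.68, 0.20, -1.10 and 0.71 in IPC+IRI and -1.47, -2.13, -0.53 and -1.96 in Hemin. The ischemic arrays of IRI and IRI+Hemin lay above all arrays of their controls, while 1 array of Hemin (replicate 3) lay above 2 of IPC+IRI. The log2 fold change was 2.35 ± 0.38 in IRI vs Control (adjusted p = 6.52e-05), 1.66 ± 0.381 in IRI+Hemin vs Hemin (adjusted p = 0.00206) and 1.30 ± 0.381 in IPC+IRI vs Hemin (adjusted p = 0.0125). In IPC+IRI vs Hemin the adjusted p was 0.0673 without normalization between arrays and 0.0528 with the 8 arrays fitted alone. Cdk6, a kinase that Cdkn2b inhibits, rose in the same 3 comparisons. It was -0.45, -0.03, -0.37 and -0.54 in Control and 0.73, 0.86, 0.88 and 0.54 in IRI, which did not overlap. The Cdk6 log2 fold change was 1.10 ± 0.15 in IRI vs Control (adjusted p = 1.19e-05), 0.67 ± 0.15 in IRI+Hemin vs Hemin (adjusted p = 0.00162) and 0.86 ± 0.15 in IPC+IRI vs Hemin (adjusted p = 3.00e-04). All 3 Cdk6 probes were higher in IRI than in Control, by 0.63 to 1.51, but in the deposited log2 matrix that change did not pass (adjusted p = 0.346) and the Cdk6 change turned to -0.25 in IRI+Hemin vs Hemin and -0.14 in IPC+IRI vs Hemin. The rise in IRI+Hemin vs Hemin did not pass without normalization between arrays either (adjusted p = 0.0925).

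**Figure D2:**
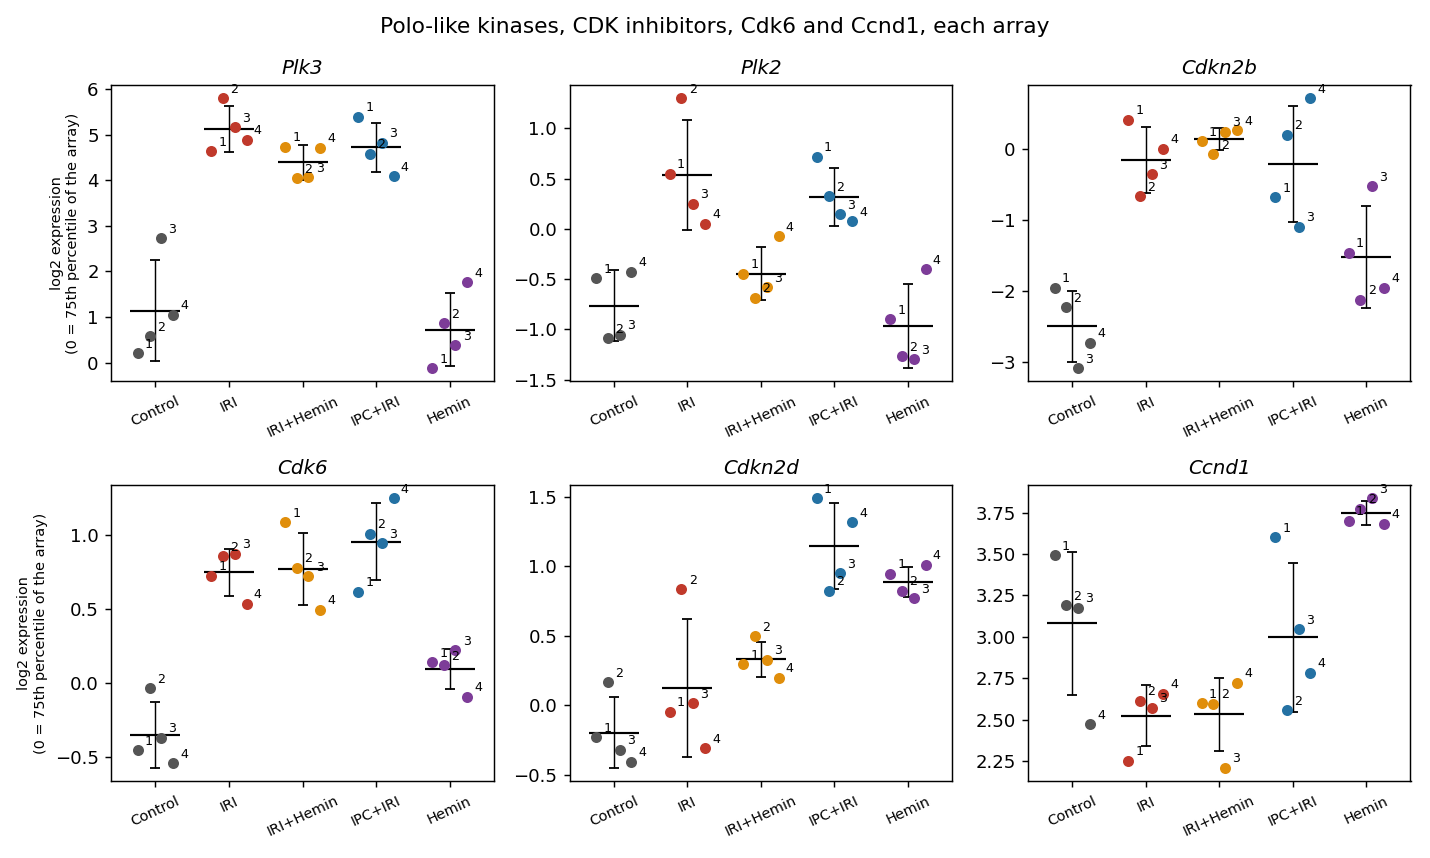
Log2 expression of Plk3, Plk2, Cdkn2b, Cdk6, Cdkn2d and Ccnd1 on each of the 20 arrays, by group; points carry the replicate number, lines are group means and bars SD (n = 4). Plk3 lay at 4.05 or above on every array of an ischemic kidney and at 2.73 or below on every other.

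Smaller rises in IRI vs Control were those of Cdk9, whose product with cyclin T phosphorylates RNA polymerase II (0.45 ± 0.103, adjusted p = 0.00138, not past the threshold with normexp background correction, where it was 0.38), and of Cdkn2aip, a partner of the Cdkn2a product Arf (0.41 ± 0.138, adjusted p = 0.0193, probes from -0.31 to 0.91). Cdk9 was also higher in IPC+IRI vs Hemin (0.39, adjusted p = 0.00726), but not past the threshold with normexp or without normalization between arrays (adjusted p = 0.306 and 0.389).

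Ccna2, Cdc25b and Aurka, genes of G2 and mitosis, were lower both in IRI vs Control and in IRI+Hemin vs Hemin. Ccna2 encodes cyclin A2, which serves both replication and entry into mitosis. Its log2 expression was -1.66, -1.55, -1.84 and -1.96 in Control, -3.15, -2.78, -3.10 and -3.29 in IRI and -3.04, -3.17, -3.04 and -3.65 in IRI+Hemin. It was -0.48, -2.77, -1.27 and -2.90 in IPC+IRI and -2.40, -1.21, -2.27 and -1.93 in Hemin. The arrays of IRI and IRI+Hemin lay below all those of Control and Hemin, while those of IPC+IRI ran from -2.90 to -0.48. Ccna2 was lower in IRI than in Control (log2 fold change -1.33 ± 0.395, adjusted p = 0.00922) and in IRI+Hemin than in Hemin (log2 fold change -1.27 ± 0.396, adjusted p = 0.0145). Without Hemin replicate 2 the latter was -1.03 (adjusted p = 0.0555), and with normexp background correction the differences were -0.29 and -0.41, neither past the threshold.

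Cdc25b, the phosphatase that activates Cdk1 at the entry into mitosis, had the largest fall of the 60 genes tested in IRI vs Control. Its log2 expression was -0.71, -0.87, -0.99 and -0.73 in Control and -0.43, -0.30, -0.44 and -0.09 in Hemin. It was -2.27, -2.29, -2.48 and -2.53 in IRI, -2.11, -1.88, -1.95 and -1.30 in IRI+Hemin and -0.86, -2.10, -1.20 and -1.53 in IPC+IRI. No array of IRI or IRI+Hemin reached the Control or Hemin range. Its log2 fold change was -1.56 ± 0.206 in IRI vs Control (adjusted p = 8.44e-06), -1.49 ± 0.207 in IRI+Hemin vs Hemin (adjusted p = 2.53e-05) and -1.11 ± 0.207 in IPC+IRI vs Hemin (adjusted p = 5.12e-04). All 3 of its probes were lower in each of these comparisons.

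Aurka, the Aurora kinase of the spindle poles, was -1.76, -2.48, -2.04 and -2.15 in Control and -2.75, -2.71, -2.98 and -3.30 in IRI. It was -3.33, -2.86, -2.58 and -2.70 in IRI+Hemin and -1.86, -0.92, -1.91 and -1.45 in Hemin. The groups of each pair did not overlap, and the log2 fold change was -0.83 ± 0.312 in IRI vs Control (adjusted p = 0.0334) and -1.33 ± 0.313 in IRI+Hemin vs Hemin (adjusted p = 0.0024). In IRI vs Control the Aurka call was lost when any of Control replicates 1, 3 and 4 or IRI replicates 3 and 4 was left out (adjusted p up to 0.0954), without normalization between arrays, after quantile normalization and with normexp (-0.19, adjusted p = 0.716), with which that in IRI+Hemin vs Hemin was -0.67 (adjusted p = 0.0521). Ccnb2 (cyclin B2), Cdc20 (the activator of the anaphase promoting complex) and Cdkn3 (a phosphatase of CDKs) were lower in IRI+Hemin than in Hemin, with log2 fold changes of -1.44 ± 0.433, -1.25 ± 0.403 and -1.94 ± 0.481 (adjusted p = 0.0121, 0.0178 and 0.00355). In IRI vs Control their log2 fold changes were -0.75, -0.66 and -1.07, and none passed (adjusted p = 0.157, 0.181 and 0.0695). Hemin replicate 2 held the highest value of its group for Ccna2, Ccnb2, Cdc20, Aurka and Cdkn3. Without it the Cdc20 difference in IRI+Hemin vs Hemin was -0.94 (adjusted p = 0.0713), and with normexp that of Cdkn3, whose 3 probes ran from -2.33 to 0.04, was -0.44 (adjusted p = 0.312).

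**Figure D3:**
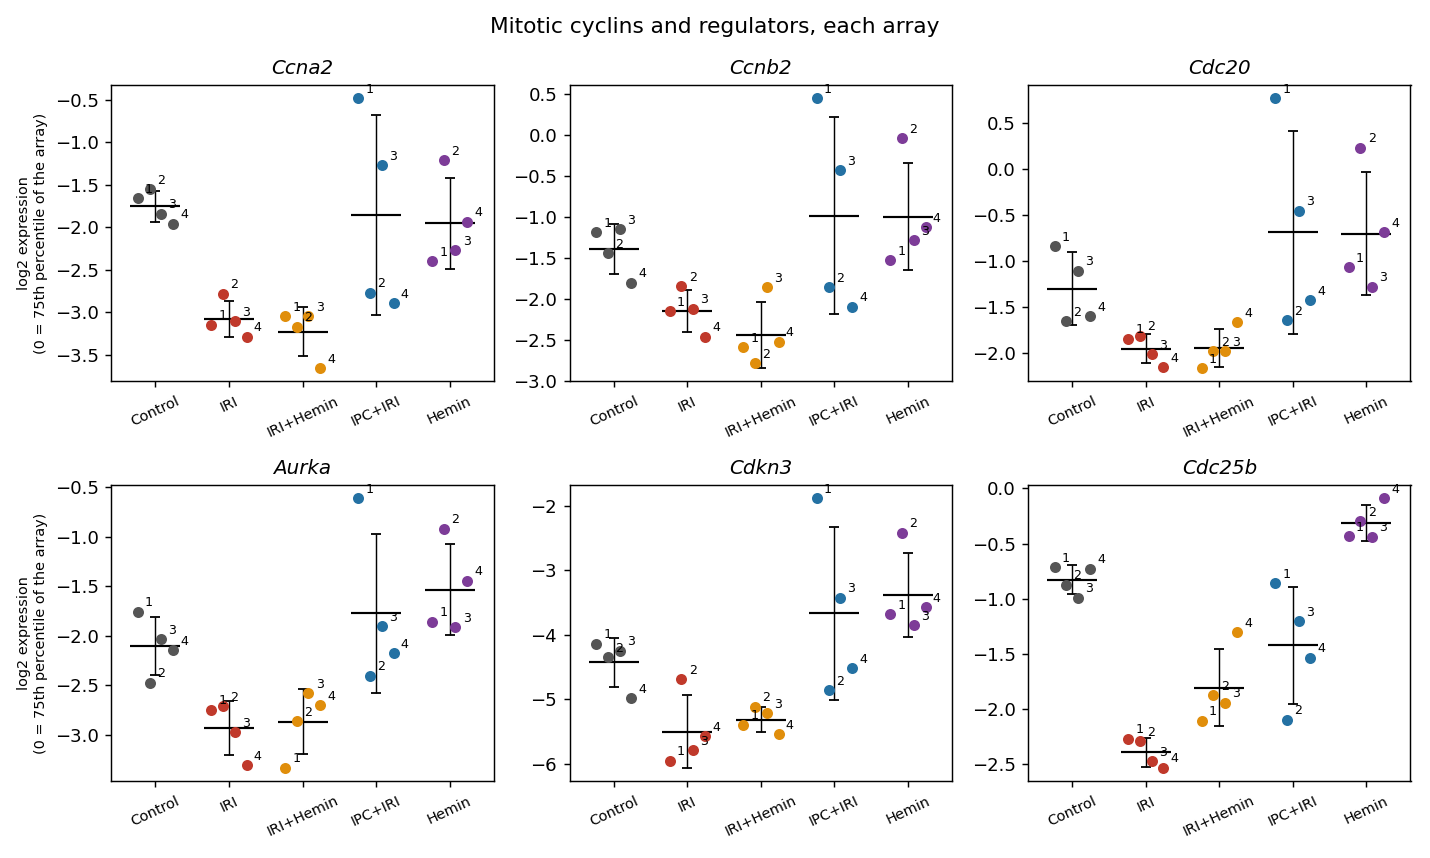
Log2 expression of Ccna2, Ccnb2, Cdc20, Aurka, Cdkn3 and Cdc25b on each of the 20 arrays, by group; points carry the replicate number, lines are group means and bars SD (n = 4). IRI and IRI+Hemin lay low in all 6 panels, and in each panel replicates 1 and 3 of IPC+IRI lay above its replicates 2 and 4.

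Cdc2a, the older name of Cdk1, and Ccnb1 (cyclin B1), the kinase and cyclin that drive mitosis, stood at the limit of detection. Cdc2a was well above background on 7 of the 20 arrays, 4 of them in Hemin and none in IRI or IRI+Hemin. It was -5.23, -3.54, -5.09 and -4.41 in Hemin and -7.05, -6.93, -6.36 and -6.46 in IRI+Hemin. As no IRI+Hemin array measured it, the difference is a bound, at least 1.68-fold lower in IRI+Hemin (adjusted p = 0.00448), and that of Ccnb1 was at least 1.23-fold lower (adjusted p = 0.00177). Both genes were tested in this comparison only through Hemin, where 4 arrays measured Cdc2a and 3 Ccnb1, and this selection favours a difference. With normexp neither passed (adjusted p = 0.808 for Cdc2a and 0.82 for Ccnb1). A bound sets the dim group at the lowest signal of a probe well above background on each array. The pseudogene Ccnb2-ps, a near copy whose signal may be shared with that of Ccnb2, was -4.08, -4.05, -3.68 and -3.97 in Hemin and -5.64, -6.64, -5.59 and -6.32 in IRI+Hemin, where 1 array measured it, and it too was tested only through Hemin. Aurkc, the meiotic Aurora kinase, was measured on 3 arrays of Control and none of IRI or IPC+IRI. It was at least 1.56-fold lower in IRI (adjusted p = 0.0397), and for IPC+IRI the bound was at least 2.25-fold (adjusted p = 0.00113). Aurkc was tested in both comparisons only through Control. The call in IRI was lost without IRI replicate 1, 3 or 4 (adjusted p up to 0.143) and its sign turned with normexp background correction (0.09), with which the difference in IPC+IRI was -0.49 (adjusted p = 0.109).

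Of the G1 genes, Ccnd1 and Cdk4 were lower. Ccnd1 (cyclin D1) was 3.49, 3.19, 3.18 and 2.47 in Control, 2.25, 2.62, 2.57 and 2.66 in IRI and 2.60, 2.60, 2.21 and 2.72 in IRI+Hemin. In IPC+IRI it was 3.60, 2.56, 3.05 and 2.78, and in Hemin 3.70, 3.77, 3.84 and 3.68. Ccnd1 was lower in IRI+Hemin than in Hemin (log2 fold change -1.22 ± 0.21, adjusted p = 1.96e-04) and in IPC+IRI than in Hemin (log2 fold change -0.75 ± 0.21, adjusted p = 0.00978). In IRI vs Control, where the groups overlapped, it was lower (log2 fold change -0.56 ± 0.209, adjusted p = 0.033), a call lost without any of Control replicates 1 to 3 or IRI replicates 1 and 3 (adjusted p up to 0.117), without normalization between arrays (adjusted p = 0.21), with normexp (adjusted p = 0.0509) and with the 8 arrays fitted alone (adjusted p = 0.0538). Cdk4, its kinase, was lower in IRI vs Control (-0.58, adjusted p = 0.00151), in IRI+Hemin vs Hemin (-0.40, adjusted p = 0.023) and in IPC+IRI vs Hemin (-0.48, adjusted p = 0.00963). None of these 3 falls of Cdk4 passed without normalization between arrays, and that in IRI+Hemin vs Hemin was lost without IRI+Hemin replicate 3 or Hemin replicate 2 (adjusted p = 0.0708 and 0.0673). With normexp Cdk4 did not pass in IRI+Hemin vs Hemin (adjusted p = 0.0682) or IPC+IRI vs Hemin (adjusted p = 0.0719). Ccnd2 and Ccnd3, the other D cyclins, gave -0.27 and 0.04 in IRI vs Control, neither past the threshold, and Ccne1 (cyclin E1) gave -0.26, not past the threshold either.

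Cdk2, the kinase of cyclins E and A, was -4.07, -4.25, -3.71 and -4.03 in Control, -4.82, -4.76, -4.93 and -4.66 in IRI and -5.89, -5.70, -5.30 and -5.35 in IRI+Hemin. It was -5.46, -5.19, -5.80 and -5.67 in IPC+IRI and -5.62, -4.98, -5.50 and -5.03 in Hemin. All 16 arrays outside Control lay below all those of Control. It was well above background on all 4 arrays of Control, 3 each of IRI and IRI+Hemin and 2 each of IPC+IRI and Hemin, and not on the others, so that IPC+IRI and Hemin were tested against Control only through Control. In IRI vs Control the log2 fold change of Cdk2 was -0.78 ± 0.175 (adjusted p = 0.00126). With normexp background correction, which models the background of dim spots anew, the change in IRI turned to 0.09 (adjusted p = 0.886), and it did not pass without normalization between arrays, after quantile normalization, on the brightest probe or in the deposited log2 matrix (-0.06, adjusted p = 0.877). The Cdk2 calls in IPC+IRI and Hemin did not pass with normexp (adjusted p = 0.172 and 0.113).

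Among the E2F factors, E2f6, a repressor, had the clearest fall. It was 0.02, 0.55, 0.14 and 0.12 in Control, -0.65, -0.91, -0.68 and -0.97 in IRI and 0.10, 0.05, 0.01 and 0.38 in IRI+Hemin. It was 0.43, 0.22, 0.09 and 0.67 in IPC+IRI and 1.11, 0.80, 1.01 and 0.87 in Hemin. IRI lay below every other group without overlap. The log2 fold change was -1.01 ± 0.142 in IRI vs Control (adjusted p = 1.61e-05) and -0.81 ± 0.142 in IRI+Hemin vs Hemin (adjusted p = 2.14e-04). Both E2f6 probes were lower in IRI, by 1.16 and 0.17, and in the deposited log2 matrix the fall in IRI+Hemin vs Hemin did not pass (-0.56, adjusted p = 0.0695). The activators E2f1 and E2f2 were lower in IRI+Hemin than in Hemin, with log2 fold changes of -1.31 and -0.76 (adjusted p = 0.00841 and 0.0484), and E2f2 also in IRI than in Control (-0.79, adjusted p = 0.0354). The E2f2 call in IRI+Hemin vs Hemin was lost when any of its arrays other than IRI+Hemin replicate 4 was left out (adjusted p up to 0.138), and that in IRI vs Control without Control replicate 1, 2 or 4 or IRI replicate 3 or 4 (adjusted p up to 0.14). With normexp none of these 3 falls passed (E2f1 -0.34, adjusted p = 0.371, and E2f2 -0.50 and -0.44, adjusted p = 0.124 and 0.209). The E2f2 falls did not pass after quantile normalization either (adjusted p = 0.065 and 0.0699), and that in IRI vs Control not without normalization between arrays (adjusted p = 0.0504). In IRI+Hemin vs Hemin, E2f1 and E2f2 did not pass in the deposited log2 matrix (adjusted p = 0.0542 and 0.0543), nor E2f2 with the replicate block (adjusted p = 0.064). E2f3 and E2f5 passed in no comparison.

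Falls of 2 further CDK inhibitors and of a subunit of the anaphase promoting complex, the ubiquitin ligase of mitotic exit, also passed. Cdkn1c (p57) was lower in IRI than in Control (log2 fold change -0.61 ± 0.162, adjusted p = 0.00453), and Cdkn2c (p18) was lower there too (log2 fold change -0.70 ± 0.222, adjusted p = 0.014) and in IRI+Hemin than in Hemin (log2 fold change -0.65, adjusted p = 0.0252). The last of these was lost without IRI+Hemin replicate 2 or 3 or Hemin replicate 4 (adjusted p up to 0.0811), and the falls of both genes in IRI vs Control did not pass without normalization between arrays. Cdc23, a subunit of the anaphase promoting complex, was -0.38, -0.24, -0.23 and -0.36 in Control, -1.18, -1.38, -1.14 and -1.14 in IRI and -0.98, -0.80, -0.83 and -0.83 in IRI+Hemin. It was -0.91, -1.08, -1.15 and -0.71 in IPC+IRI and 0.08, 0.03, 0.02 and -0.12 in Hemin. Every ischemic array lay below every Control and Hemin array, and the log2 fold change was -0.91 ± 0.101 in IRI vs Control (adjusted p = 1.41e-06), -0.86 ± 0.101 in IRI+Hemin vs Hemin (adjusted p = 4.84e-06) and -0.97 ± 0.101 in IPC+IRI vs Hemin (adjusted p = 1.92e-06). The 2 Cdc23 probes gave -1.13 and -0.08 in IRI vs Control, so that 1 of them hardly changed. They gave -0.91 and -0.63 in IRI+Hemin vs Hemin, and -1.03 and -0.59 in IPC+IRI vs Hemin.

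IRI+Hemin vs Hemin and IPC+IRI vs Hemin, one with the same ischemia on the hemin background and the other within 1 scan day, share no array with IRI vs Control. In IRI+Hemin vs Hemin, 6 of 63 genes were higher (9.52%, all genes 15.6%) and 29 lower (46%, all genes 29.2%), and their median was -0.40 on the log2 scale (all genes -0.17). At 2-fold or more by the fitted change, 2 were higher and 12 lower (all genes 5.59% and 8.96%), and the 12 held Cdc2a, Ccnb1 and Ccnb2-ps, which were tested only through Hemin. In IPC+IRI vs Hemin, 6 of 64 were higher (9.38%, all genes 12.7%) and 13 lower (20.3%, all genes 24.3%), and the split was 3 and 12 without normalization between arrays. At 2-fold or more by the fitted change, 3 were higher and 2 lower (all genes 5.13% and 5.72%), and 1 of the 2 was Ccnb2-ps, measured on 1 IPC+IRI array and tested only through Hemin. Of the 6 genes higher in IRI vs Control, 3 (Cdk6, Cdkn2b and Plk3) were also among the 6 higher in IRI+Hemin vs Hemin, or 50% of each list, where all genes gave 64.4% and 64.3%. Of the 14 lower, 11 were among the 29 lower in IRI+Hemin vs Hemin, which is 78.6% of the first list and 37.9% of the second (all genes 55.3% and 63%): Aurka, Ccna2, Ccnd1, Cdc14a, Cdc23, Cdc25b, Cdk4, Cdkn2c, E2f2, E2f6 and Mcm2. With IPC+IRI vs Hemin, IRI vs Control shared 5 higher genes (Cdk6, Cdk9, Cdkn2b, Plk2 and Plk3), which is 83.3% of each list (all genes 58.3% and 72.2%). It shared 7 lower genes (Ccnd1, Cdc14a, Cdc23, Cdc25b, Cdk4, Cdkn2c and E2f6), or 50% of its own list and 53.8% of the other (all genes 50% and 69%). Markers of other cells moved with ischemia too. The neutrophil genes S100a8 and S100a9 were higher by 4.03 ± 0.656 and 3.66 ± 0.524 in IRI vs Control (adjusted p = 6.98e-05 and 1.94e-05), the summed level of the 5 neutrophil markers ran from -1.72 to -0.61 in Control and from 1.25 to 2.98 in IRI, 2 of the 3 tested were higher and 1 lower, and Ela2 was well above background on no array. In the same comparison 2 of 4 T cell and 2 of 2 B cell markers tested were lower, and the proximal tubule, podocyte and fibroblast lists each had 1 lower. The macrophage and collecting duct lists each had 1 higher, and the endothelium list had 1 higher and 1 lower. In IRI+Hemin vs Hemin, 3 of 4 neutrophil markers and 1 of 4 macrophage markers were higher, while 3 of 4 proximal tubule, 2 of 3 fibroblast, 2 of 4 T cell and 1 of 1 B cell markers tested were lower. In IPC+IRI vs Hemin, 3 of 4 neutrophil, 2 of 4 macrophage and 1 of 3 thick limb and distal tubule markers were higher, while 2 of 4 proximal tubule, 1 of 2 podocyte, 1 of 4 T cell and 1 of 4 neutrophil markers were lower. Their part in the changes of the cell cycle genes was not tested.

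**Figure D4:**
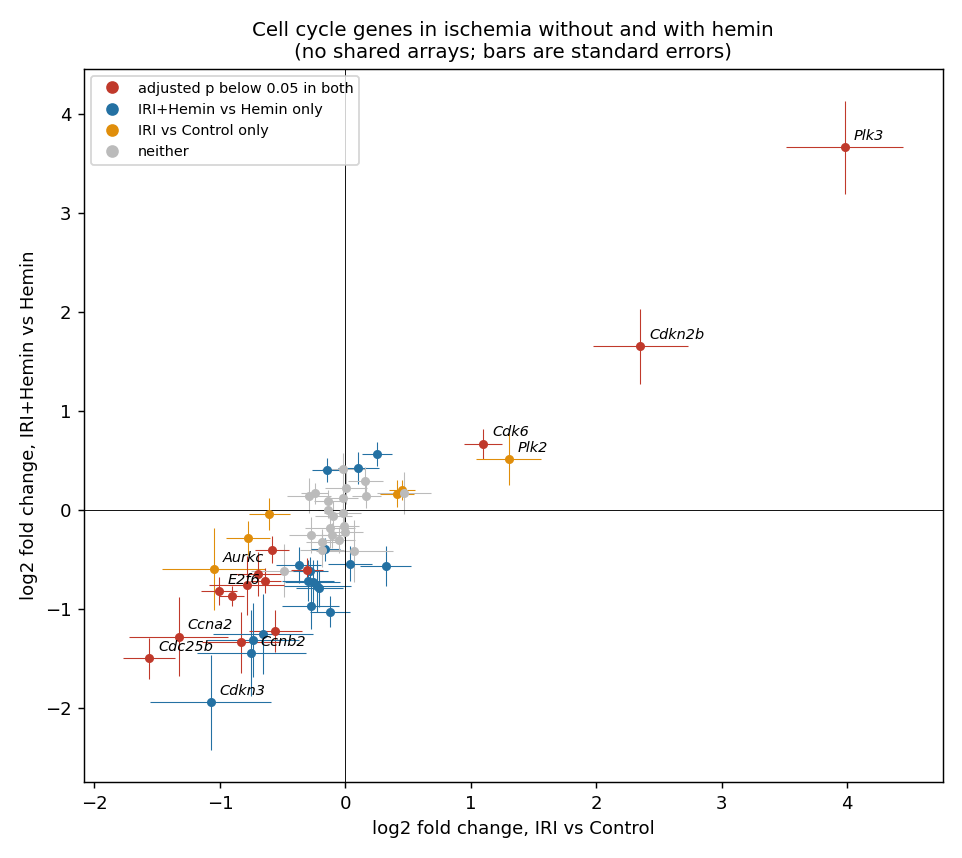
Log2 fold change of the 60 cell cycle genes tested in both IRI vs Control (horizontal) and IRI+Hemin vs Hemin (vertical), comparisons that share no array; bars are standard errors and colours mark where the adjusted p was below 0.05. Plk3, Cdkn2b and Cdk6 rose in both, and Cdc25b and Ccna2 lay low in both.

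The Mcm genes encode the helicase that is loaded at replication origins and unwinds DNA. Mcm2 was -0.53, -0.55, -0.51 and -0.55 in Control, -0.90, -0.73, -0.996 and -0.73 in IRI and -0.36, -0.59, -0.68 and -0.85 in IRI+Hemin. It was 0.28, -0.26, -0.05 and -0.32 in IPC+IRI and -0.01, -0.004, -0.02 and -0.03 in Hemin. Both last groups lay above Control, IRI and IRI+Hemin without overlap. Mcm2 was higher than in Control by 0.52 ± 0.125 in Hemin (adjusted p = 0.00407) and 0.45 ± 0.124 in IPC+IRI (adjusted p = 0.00521), and lower in IRI+Hemin than in Hemin (log2 fold change -0.60 ± 0.125, adjusted p = 8.59e-04). The difference of -0.31 in IRI vs Control (adjusted p = 0.0471) was lost without any of the 4 Control arrays or IRI replicates 1 and 3. It also did not pass with the replicate block (adjusted p = 0.0525), without normalization between arrays (-0.17, adjusted p = 0.681), after quantile normalization (adjusted p = 0.107) or with normexp (adjusted p = 0.432). With normexp the Mcm2 rise in IPC+IRI vs Control was 0.24 (adjusted p = 0.109), and without normalization between arrays the fall in IRI+Hemin vs Hemin did not pass (adjusted p = 0.0627).

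Mcm3 was -1.18, -1.66, -1.57 and -1.50 in Control, -1.48, -1.75, -1.60 and -1.57 in IRI and -2.06, -1.49, -1.79 and -1.69 in IRI+Hemin. It was -0.61, -1.07, -0.80 and -1.33 in IPC+IRI and -0.90, -0.89, -0.68 and -0.48 in Hemin. Hemin lay above Control, IRI and IRI+Hemin without overlap, and IPC+IRI above IRI. The log2 fold change was 0.74 ± 0.159 in Hemin vs Control (adjusted p = 0.00195) and -1.02 ± 0.159 in IRI+Hemin vs Hemin (adjusted p = 7.73e-05), while in IRI vs Control it was -0.13 (95% confidence interval -0.46 to 0.21). Both Mcm3 probes were lower in IRI+Hemin than in Hemin, by 1.13 and 0.56. In the deposited log2 matrix the Hemin vs Control difference turned to -0.06 (adjusted p = 0.899) and that in IRI+Hemin vs Hemin was -0.27 (adjusted p = 0.473). Mcm6 went the same way, from 2.13 ± 0.373 (mean ± SD, n = 4) in Control to 2.90 ± 0.146 in Hemin and 2.64 ± 0.323 in IPC+IRI, with 1.92 ± 0.219 in IRI and 2.11 ± 0.232 in IRI+Hemin. It was higher in Hemin vs Control (0.77, adjusted p = 0.00449) and IPC+IRI vs IRI (0.72, adjusted p = 0.00496), and lower in IRI+Hemin vs Hemin (-0.79, adjusted p = 0.0026).

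Of the remaining subunits, Mcm7 passed in no comparison, with a 95% confidence interval of -0.02 to 0.53 in Hemin vs Control. Mcm5 was lower in IRI+Hemin than in Hemin (-0.97 ± 0.227, adjusted p = 0.00235) and than in IRI (-0.66 ± 0.226, adjusted p = 0.0242, lost without IRI replicate 3 or IRI+Hemin replicate 1, 2 or 3 and without normalization between arrays), and not past the threshold in Hemin vs Control (0.03). Mcm4 was higher in Hemin vs Control by 0.34 (adjusted p = 0.0316) and in IPC+IRI vs Control by 0.29 (adjusted p = 0.041), and only 1 of its 2 probes was above background. Both Mcm4 calls were lost without Control replicate 2, 3 or 4, that in Hemin also without Hemin replicate 2, 3 or 4, and that in IPC+IRI without any 1 of the IPC+IRI arrays. Neither passed with normexp (adjusted p = 0.132 and 0.202), with the mean of log2 over probes (0.04 and -0.13) or in the deposited log2 matrix (adjusted p = 0.0874 and 0.0707). Cdc7, the kinase that fires origins, was higher in Hemin vs Control by 0.90 ± 0.267 (adjusted p = 0.0147), lost without Hemin replicate 3 (adjusted p = 0.0553), and turned to -0.21 with normexp background correction, and it was 0.49 in the deposited log2 matrix (adjusted p = 0.571).

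**Figure D5:**
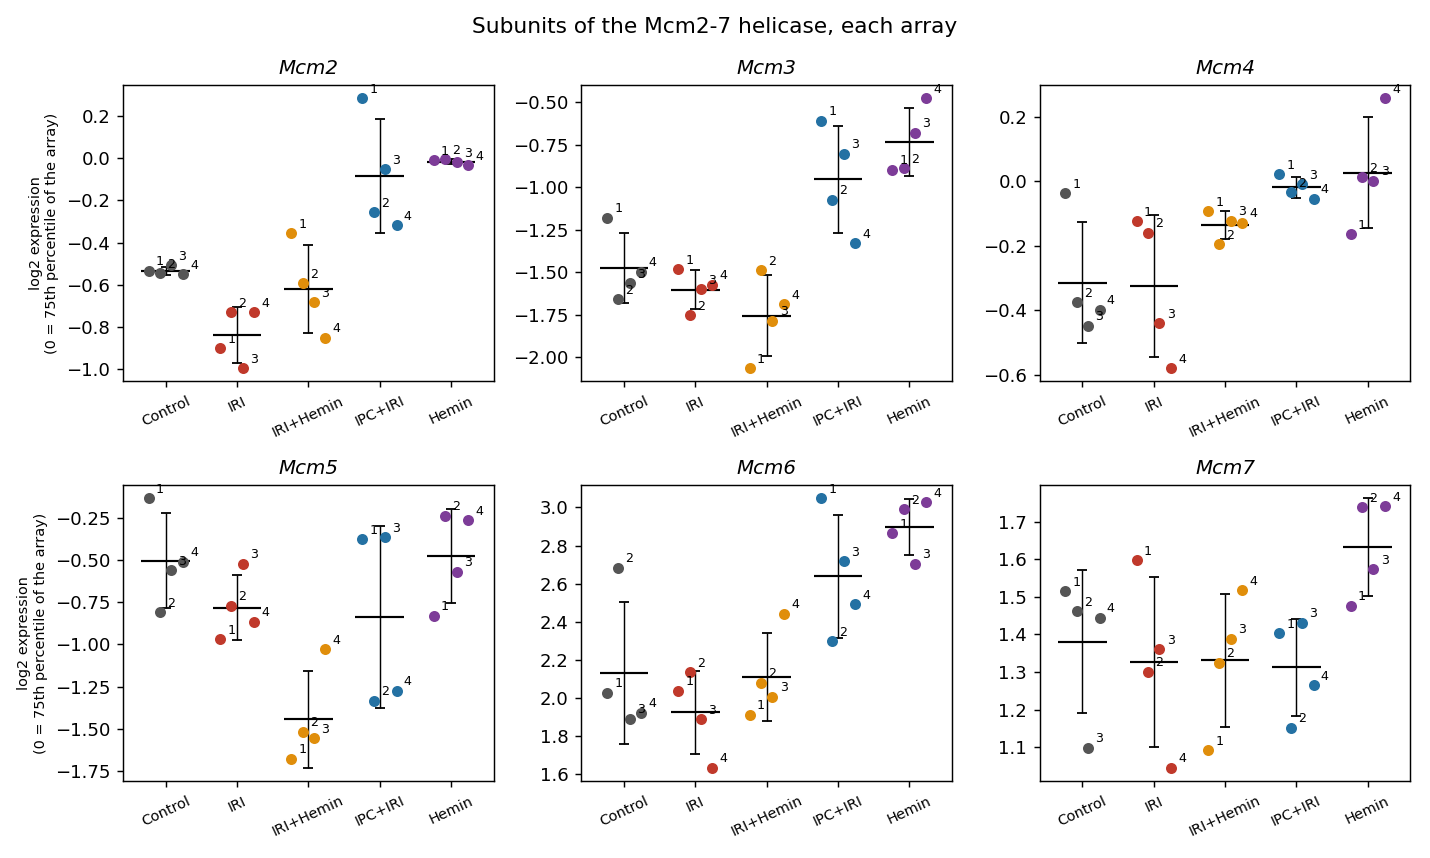
Log2 expression of the 6 subunits of the Mcm2-7 helicase on each of the 20 arrays, by group; points carry the replicate number, lines are group means and bars SD (n = 4). Mcm2, Mcm3 and Mcm6 were highest on average in Hemin, with IPC+IRI next.

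IPC+IRI vs IRI asked what preconditioning 7 days earlier changed in ischemic kidneys. Of 61 genes, 19 were higher and 9 lower in IPC+IRI (31.1% and 14.8%), where 26.1% and 17.9% of all 17663 genes tested were higher and lower. The median change was 0.24 on the log2 scale (all genes 0.09). At 2-fold or more, 7 were higher and none lower (all genes 7.16% and 4.41%): Cdkn3, Cdc20, Ccna2, Aurka, Ccnb2, E2f6 and Cdkn2d. Of the 61 genes, 6 were measured on 3 or more arrays of only 1 group, among them the higher Cdkn3 (through IPC+IRI) and the lower Cdk2 (through IRI). Without IPC+IRI replicate 1 the higher genes were 12. The split was 25 and 0 without normalization between arrays, where the median of all genes was 0.41. Cdc20 was higher by 1.27 ± 0.401 (adjusted p = 0.0161), Ccna2 by 1.23 ± 0.395 (adjusted p = 0.0177), Aurka by 1.16 ± 0.312 (adjusted p = 0.00614) and Ccnb2 by 1.16 ± 0.432 (adjusted p = 0.037).

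The mitotic rises were uneven over the 4 arrays of IPC+IRI. Cdkn3, well above background on all of these and on 2 arrays of IRI, was tested in this comparison only through IPC+IRI, and its 3 probes differed by -0.54 to 2.44. Cdc20 was 0.77, -1.65, -0.45 and -1.43 in IPC+IRI and -1.85, -1.82, -2.02 and -2.16 in IRI. Ccnb2 was 0.44, -1.86, -0.43 and -2.10 in IPC+IRI and -2.15, -1.84, -2.12 and -2.46 in IRI, and Cdkn3 -1.88, -4.86, -3.42 and -4.51 and -5.95, -4.69, -5.79 and -5.57. In each, replicates 1 and 3 of IPC+IRI stood above its replicates 2 and 4, and Ccnb2 of replicates 2 and 4 lay within the IRI range. Aurkb, the Aurora kinase of the chromosomal passenger complex, was well above background on 2 of the 20 arrays, 1 in IPC+IRI and 1 in Hemin, and was -3.23, -6.45, -4.84 and -6.12 in IPC+IRI. Replicates 1 and 3 both lay above 2 and 4 in 28 of the 61 genes (45.9%) and in 26.1% of all 17649 genes with a value on the 4 arrays. Without IPC+IRI replicate 1, the difference was 0.77 for Ccna2 (adjusted p = 0.068), 0.78 for Cdc20 (adjusted p = 0.0578) and 0.68 for Ccnb2 (adjusted p = 0.149), and without replicate 3 Ccna2 and Ccnb2 were also not past the threshold (adjusted p = 0.0591 and 0.103). Ccnb2 was lost without IRI replicate 1, 3 or 4 as well (adjusted p up to 0.0875). With normexp background correction the Cdkn3 difference turned to -0.09 (adjusted p = 0.808), and those of Ccna2, Ccnb2, Cdc20 and Aurka were 0.25, 0.54, 0.61 and 0.22, none past the threshold. With the 8 arrays fitted alone Ccna2, Ccnb2 and Cdc20 did not pass (adjusted p = 0.0785, 0.101 and 0.0568).

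Marker genes moved in this comparison too. The macrophage genes Lyz2 and Emr1 were higher by 2.17 ± 0.374 and 1.67 ± 0.435 (adjusted p = 2.10e-04 and 0.0049), and Cd68 lower (log2 fold change -0.82, adjusted p = 0.0409). The summed level of the 4 macrophage markers was 2.44, 3.94, 4.30 and 3.15 in IPC+IRI replicates 1 to 4, against 1.83 to 2.18 in IRI. For the 3 fibroblast markers it was 1.25, 2.80, 2.87 and 2.43, against 1.73 to 2.62. Of the whole lists, 2 of 4 macrophage markers were higher and 1 lower, 2 of 4 T cell markers higher, 3 of 3 erythroid markers tested lower, and none of 4 neutrophil markers tested passed. Of the markers of kidney tissue, 2 of 4 for the proximal tubule and 2 of 4 for endothelium were lower, and 1 of 3 for fibroblasts was higher. Within IPC+IRI, replicate 1 held the least of the macrophage and fibroblast markers and replicate 3 the most. Replicate 1 was also lowest in the summed endothelium, erythroid, neutrophil and podocyte markers. It was highest in those of the proximal tubule and of the thick limb and distal tubule. The part of the marker genes in the result was not tested.

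Further genes differed between IPC+IRI and IRI. Mcm2, Mcm3 and Mcm6 were higher by 0.76, 0.65 and 0.72 (adjusted p = 1.43e-04, 0.00324 and 0.00496), without overlap between the groups. E2f6 was higher by 1.16 ± 0.142 (adjusted p = 1.25e-05), Cdc25b by 0.97 ± 0.206 (adjusted p = 0.00116) and Cdkn1c by 0.76 ± 0.162 (adjusted p = 0.0012), also without overlap. For Mcm2, Mcm3, Mcm6 and Cdc25b, replicates 1 and 3 of IPC+IRI again stood above its replicates 2 and 4. This was not so for E2f6 and Cdkn1c. With normexp the differences of Mcm3 and Cdc25b were 0.26 and 0.19 (adjusted p = 0.171 and 0.461), and in the deposited log2 matrix they did not pass (adjusted p = 0.0737 and 0.0795). Cdkn2d (p19, an INK4 inhibitor) was 1.49, 0.82, 0.95 and 1.32 in IPC+IRI, -0.05, 0.84, 0.01 and -0.31 in IRI and -0.23, 0.17, -0.32 and -0.41 in Control. It was higher in IPC+IRI than in IRI by 1.02 ± 0.201 (adjusted p = 6.04e-04) and than in Control by 1.34 ± 0.201 (adjusted p = 2.77e-05). Among the 9 lower genes were Cdc73, of the Paf1 transcription complex (-0.80, adjusted p = 6.88e-05), Ccnd3 (-0.69, adjusted p = 0.00395) and Cdk5, a CDK best known from neurons (-0.67, adjusted p = 4.61e-04). None of these 3 falls passed without normalization between arrays, and the 2 Cdc73 probes went opposite ways (-1.20 and 0.42).

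In IPC+IRI vs Control, 15 of 62 genes were higher (24.2%, all genes 22.2%) and 16 lower (25.8%, all genes 33.7%), with a median of 0.10 (all genes -0.11). The split was 25 and 2 without normalization between arrays and 6 and 16 in the deposited log2 matrix. Plk3, Cdkn2b, Cdkn2d, Cdk6 and Plk2 rose by 2-fold or more, with log2 fold changes of 3.58, 2.29, 1.34, 1.30 and 1.08. The 3 Cdk6 probes ran from -0.60 to 1.37, and Cdk6 did not pass in the deposited log2 matrix (0.24, adjusted p = 0.844). These were the 5 genes higher at 2-fold, and 2 (Cdk2 and Aurkc) were lower by the fitted change, both tested only through Control, where 7.68% and 14.6% of all genes were. Ccna2, Ccnb2, Cdc20 and Aurka differed from Control by -0.10, 0.41, 0.61 and 0.33, none past the threshold. This comparison shares its Control arrays with IRI vs Control. Of the markers, 4 of 4 for the proximal tubule, 1 of 2 for podocytes, 2 of 4 for T cells, 2 of 2 for B cells and 1 of 4 for neutrophils were lower. Higher were 3 of 4 for neutrophils, 2 of 4 for macrophages, 2 of 2 for the collecting duct and 1 of 3 for the thick limb and distal tubule, and their part in the changes was not tested.

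Hemin vs Control asked what the inducer did by itself. Of 63 genes, 15 were higher and 6 lower (23.8% and 9.52%), where 18.3% and 17.6% of all 18572 genes tested were higher and lower, and the median was 0.30 (all genes 0.05). Without Control replicate 4 the counts fell to 9 and 4. The split of 15 and 6 was 40 and 1 without normalization between arrays, where the median of all genes was 0.62, 10 and 10 when the 75th percentile was taken over probes above background on all arrays, and 7 and 10 in the deposited log2 matrix. At 2-fold or more, 1 gene (Cdkn2d) was higher and 1 (Cdk2, measured on 2 arrays of Hemin and tested only through Control) lower by the fitted change (all genes 2.17% and 6.03%). Of 10 licensing and firing genes tested, 6 were higher (Mcm2, Mcm3, Mcm4, Mcm6, Mcm8 and Cdc7) and none lower. The calls of Mcm3, Mcm4 and Cdc7 carry the limits given above. The 2 Mcm8 probes gave -0.13 and 0.56, and only 1 of them was above background. The largest rise was that of Cdkn2d, 0.95, 0.82, 0.77 and 1.01 in Hemin, which did not overlap Control (1.09 ± 0.201, adjusted p = 6.99e-04). E2f6 was higher by 0.74 ± 0.142 (adjusted p = 8.96e-04) and Ccnd1 by 0.67 ± 0.21 (adjusted p = 0.0201), the latter lost without Control replicate 4 (adjusted p = 0.0843). Among the lower genes was Cdc73 (-0.88, adjusted p = 1.04e-04), which did not pass without normalization between arrays (-0.31, adjusted p = 0.353). Of the markers tested, 2 of 2 for B cells and 1 of 4 for the proximal tubule were lower and 1 of 2 for the collecting duct was higher, and their part in the changes was not tested.

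IRI+Hemin vs IRI asked what Hemin given before surgery changed in ischemic kidneys. Of 59 genes, 11 were higher and 9 lower (18.6% and 15.3%), where 26% and 18.2% of all 17831 genes tested were higher and lower. The median change was 0.07 on the log2 scale (all genes 0.08). Of the 59, Cdc7, Cdkn3 and Plk4 were tested only through IRI+Hemin, and 2 of these (Cdc7 and Plk4, both reversed with normexp, at -0.46 and -0.49) were among the 11 higher. None of the 59 reached 2-fold, as 7.36% and 5.08% of all genes did upward and downward. The split was 17 and 0 without normalization between arrays and 7 and 9 in the deposited log2 matrix. E2f6 (0.94 ± 0.142, adjusted p = 6.86e-05), Cdkn1c (0.92 ± 0.162, adjusted p = 2.59e-04), Cdc25a, a phosphatase of Cdk2 (0.76 ± 0.17, adjusted p = 0.00163), and Cdc25b (0.58 ± 0.207, adjusted p = 0.0284) were higher in IRI+Hemin. The 2 E2f6 probes went opposite ways, by 1.13 and -0.52, as did the 2 of Cdc25a (-0.67 and 1.04), and the 3 of Cdc25b ran from -0.27 to 0.81. With the mean of log2 over probes none of these 3 genes passed (adjusted p = 0.166, 0.649 and 0.259). The Cdc25a difference turned to -0.09 and that of Cdc25b was 0.005 with normexp background correction, and the Cdc25b call was lost without IRI replicate 3 or 4 or IRI+Hemin replicate 4. E2f4, a factor that represses in quiescent cells (-0.99 ± 0.207, adjusted p = 0.00101), Plk2 and Ccnd3 (-0.83, adjusted p = 0.001) had the largest falls of the genes tested. These 3 falls did not pass without normalization between arrays. Of the markers tested, 2 of 4 for endothelium, 1 of 4 for the proximal tubule and 1 of 2 for the collecting duct were higher, and 1 of 4 each for endothelium, proximal tubule and T cells and 1 of 1 for B cells were lower. Their part in the changes was not tested. Ccna2, Ccnb2, Cdc20 and Aurka differed by -0.15, -0.29, 0.01 and 0.07, with 95% confidence intervals that reached from -0.96 to 0.67 for Ccna2 and from -0.60 to 0.73 for Aurka.

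Whether hemin changed the effect of ischemia was tested as an interaction, the log2 fold change of IRI+Hemin vs Hemin less that of IRI vs Control. It passed for Mcm3 alone (-0.90 ± 0.226, adjusted p = 0.0208), 1 of 63 genes, where 5.77% of all 19058 genes tested had a positive and 1.95% a negative interaction (4.28% and 0.845% at 2-fold or more, where none of the 63 was). With ischemia, the log2 fold change of Mcm3 was -1.02 under hemin and -0.13 without it. The interaction of Mcm3 was not past the threshold without normalization between arrays, with the mean of log2 over probes, with normexp or in the deposited log2 matrix (log2 values up to -0.10, adjusted p up to 0.923). The Plk3, Cdkn2b, Ccna2 and Cdc25b interactions were -0.32, -0.69, 0.05 and 0.07, none past the threshold.

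A list of 93 other cell cycle genes, of replication forks, nucleotide supply, checkpoints, pocket proteins and the mitotic spindle, gave the wider background. In IRI vs Control, 10 of 82 were higher and 29 lower (12.2% and 35.4%, all genes 16.4% and 35%), and in IRI+Hemin vs Hemin 4 of 85 and 41 (4.71% and 48.2%, all genes 15.6% and 29.2%). In IPC+IRI vs IRI, 42 of 85 were higher and 10 lower (49.4% and 11.8%, all genes 26.1% and 17.9%), and in Hemin vs Control 28 of 85 and 9 (32.9% and 10.6%, all genes 18.3% and 17.6%). Of genes of the spindle, kinetochore and cytokinesis, 1 of 22 tested was higher and 8 lower in IRI vs Control (4.55% and 36.4%, near all genes for the falls). In IRI+Hemin vs IRI, 4 of 19 were higher (21.1%, all genes 26%) and none lower, and in Hemin vs Control 2 of 25 were higher and 1 lower. Genes of this group were lower for 16 and higher for 1 of 25 tested in IRI+Hemin vs Hemin, and in IPC+IRI vs IRI 16 of 24 were higher and none lower. Of the 16 lower, 6 were tested only through Hemin, and of the 16 higher, 5 only through IPC+IRI, groups where they were brighter, so that these counts do not speak for the whole group. In IPC+IRI, replicates 1 and 3 lay above 2 and 4 in 20 of these 24 genes, and in 26.1% of all 17649 genes. This order was already seen in the mitotic genes above, so the count is no separate support for it. Mki67, the proliferation marker, was 0.16, -2.46, -0.67 and -2.38 in IPC+IRI and -2.71, -2.29, -2.74 and -3.01 in IRI, a difference of 1.35 ± 0.484 (adjusted p = 0.0309) that was not past the threshold without IPC+IRI replicate 1 or 3 or without IRI replicate 1, 3 or 4, with normexp (0.40, adjusted p = 0.329) or with the 8 arrays fitted alone (adjusted p = 0.0804). Cenpe, a kinetochore motor, was lower in IRI vs Control (log2 fold change -2.05 ± 0.356, adjusted p = 1.33e-04), with -2.23 ± 0.357 in IRI+Hemin vs Hemin (adjusted p = 9.74e-05). With normexp the Cenpe difference in IRI vs Control was -0.43 (adjusted p = 0.283).

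Some genes of this list rose in IRI vs Control. Myc, a transcription factor of cell growth, was -0.29, -1.89, -1.31 and -1.31 in Control, 2.58, 3.06, 2.93 and 2.73 in IRI and 1.08, 0.65, 1.14 and 1.58 in IRI+Hemin. It was 0.38, 0.77, 0.35 and 0.61 in IPC+IRI and -2.73, -2.66, -2.79 and -2.25 in Hemin, and no group of ischemic kidneys overlapped Control or Hemin. Myc was higher by 4.03 ± 0.255 in IRI vs Control (adjusted p = 3.03e-09), and lower in IPC+IRI and IRI+Hemin than in IRI (log2 fold changes -2.30 and -1.72, adjusted p = 6.95e-06 and 6.03e-05). Kif23, a kinesin of cytokinesis, was higher in IRI vs Control by 2.25 ± 0.25 (adjusted p = 1.42e-06), and Wee1, the kinase that restrains Cdk1, by 1.61 ± 0.323 (adjusted p = 4.64e-04). Wee1 was -1.97, -3.65, -1.47 and -3.01 in Control, -1.08, -0.69, -0.98 and -0.88 in IRI and -4.28, -4.34, -4.17 and -4.33 in Hemin, lower in Hemin than in Control (log2 fold change -1.75 ± 0.324, adjusted p = 6.82e-04). Pcna, the sliding clamp of replication, was higher in IRI, IPC+IRI and Hemin than in Control, by 0.44, 0.90 and 0.39 (adjusted p = 0.00549, 9.08e-06 and 0.0185). The Pcna call in Hemin was lost without Control replicate 3 or 4 (adjusted p = 0.0648 and 0.0603) and after quantile normalization (adjusted p = 0.0545), and that in IRI did not pass without normalization between arrays (adjusted p = 0.0524) or with normexp (0.34, adjusted p = 0.0935). Of the pocket proteins, Rbl1 was lower in IRI vs Control (log2 fold change -1.17 ± 0.218, adjusted p = 2.52e-04), though with normexp it was -0.48 (adjusted p = 0.0762), Rbl2 gave -0.30 there and Rb1 -0.23, neither past the threshold. Chek2, a checkpoint kinase, was -3.62 ± 0.251 (mean ± SD, n = 4) in Control and -5.43 ± 0.205 in IRI, where 1 array measured it, and with normexp background correction the groups differed by 0.01.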

How the data were processed

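Total kidney RNA was labelled with Cy3 and hybridised to 20 1-colour Agilent arrays, 4 per group, and groups were taken from the sample labels. The deposited scanner files hold the intensity of each spot as processed by the authors' scanner software, Agilent Feature Extraction 9.5.3.1, which had subtracted the background. A deposited log2 matrix holds the same processed signals without scaling, with 18.1% of its cells blank, and served as an alternative. For each array, control spots and outlier flags were left out, the processed signals of a probe were averaged and divided by the 75th percentile of the array, probes of a gene name were averaged, and log2 was taken. A gene entered a comparison with at least 3 of 4 arrays well above background in 1 group and at most 1 missing value (2 for the interaction). Group means of all 20 arrays were fitted in limma 3.58.1 (R 4.3.3), and p-values were adjusted over all genes tested by Benjamini-Hochberg. The scripts were tested on simulated data. The number of arrays, 4 per group, limits the precision.

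The members and lists were chosen with earlier results of these data known. The genes named were the 5 largest rises and falls of each comparison and a list of core genes; Cdkn2aip, Cdc14a, Mcm8 and the genes of the overlaps were added after their values were seen. Alternatives changed the scaling, background correction, probe summary, filter, samples fitted and fold, left out each array, or added the replicate number as a block. The study's significance analysis of microarrays was not run, and its PCR measurements were not analysed here. Promoter sequences came from RefSeq on GRCm38.p6.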

Additional observations from a re-analysis of the deposited data

Results flagged for a closer look

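In 17 of the 340 sets of 4 values looked at, or 5%, 1 array stood far from the other 3 of its group by Dixon's test, which chance does in about 1 set in 20. In Control, replicate 2 stood apart for Ccnd2 (log2 expression 0.12), Ccnd3 (2.04), Cdc26 (0.17), Rbl2 (-0.77) and Chek2 (-3.99), replicate 1 for Ccne2 (-5.02) and replicate 3 for Mcm7 (1.10). In IRI, replicate 4 stood apart for Ccnb2-ps (-7.50), replicate 1 for Cdc40 (-1.18) and replicate 2 for Cdc6 (-5.78). In IRI+Hemin, replicate 2 stood apart for Cdk3 (-3.87) and E2f1 (-5.59). In IPC+IRI, replicate 4 stood apart for E2f3 (-1.997) and replicate 1 for Pcna (3.01). In Hemin, replicate 1 stood apart for Aurkc (-5.73), replicate 2 for Ccnd2 (-0.28) and replicate 4 for Cdc25a (-3.17). For Mcm3 the effect of ischemia differed with and without hemin by the interaction test (-0.90 on the log2 scale, adjusted p = 0.0208 in limma).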

How the results depend on the processing

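Of 2192 values of named genes that passed the threshold and were computed under an alternative other than leaving out an array, 1880 stayed past it in the same direction, 283 did not pass and 29 reversed. Of 1617 such values with 1 array left out, 1412 stayed, 205 did not pass and none reversed. With 1 array left out, the genes called ranged from 15 to 20 in IRI vs Control, 24 to 29 in IPC+IRI vs Control, 13 to 27 in Hemin vs Control, 19 to 28 in IPC+IRI vs IRI, 16 to 20 in IRI+Hemin vs IRI, 28 to 38 in IRI+Hemin vs Hemin, 16 to 24 in IPC+IRI vs Hemin and 1 to 3 in the interaction. With normexp background correction the counts were 10 in IRI vs Control, 19 in IPC+IRI vs Control, 13 in Hemin vs Control, 15 in IPC+IRI vs IRI, 22 in IRI+Hemin vs Hemin, 11 in IPC+IRI vs Hemin and 0 in the interaction. Without normalization between arrays they were 9 in IRI vs Control, 41 in Hemin vs Control and 0 in the interaction. At 2-fold or more they were 8, 7, 2, 7, 0, 14, 5 and 0, in the order given for the arrays left out. With the mean of log2 over probes they were 13 in Hemin vs Control and 2 in the interaction, in the deposited matrix 12 in IPC+IRI vs Hemin and 0 in the interaction, on the brightest probe 2 and with the 75th percentile of probes above background 3 in the interaction. Without normalization between arrays the median of all genes moved from -0.19 to -0.05 in IRI vs Control, from -0.11 to 0.35 in IPC+IRI vs Control, from 0.05 to 0.62 in Hemin vs Control, from 0.09 to 0.41 in IPC+IRI vs IRI and from 0.08 to 0.45 in IRI+Hemin vs IRI.

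Reversed log2 fold changes with normexp were Aurkc 0.092, Cdk2 0.092, Chek2 0.014 and Cenpf 0.058 in IRI vs Control, Cdc7 -0.21 in Hemin vs Control, Cdc25a -0.16, Cdkn3 -0.091, E2f1 -0.24, Top2a -0.36, Cenpe -0.090 and Cenpf -0.18 in IPC+IRI vs IRI, and Cdc25a -0.089, Cdc7 -0.46, Plk4 -0.49 and Chek2 -0.50 in IRI+Hemin vs IRI. With the mean of log2 over probes they were Cdc26 -0.01 and Mcm4 -0.13 in IPC+IRI vs Control, Cdk6 -0.22 in Hemin vs Control, Cdkn1b 0.34 and Mcm4 -0.081 in IPC+IRI vs IRI, and Cdkn1b 0.76 and Rb1 -0.30 in IRI+Hemin vs IRI. In the deposited matrix they were Mcm3 -0.06 in Hemin vs Control, Cdc26 -0.044 and Plk4 -0.041 in IRI+Hemin vs IRI, and Cdk6 -0.25 in IRI+Hemin vs Hemin and -0.14 in IPC+IRI vs Hemin. On the brightest probe they were Plk4 -0.034 in IRI+Hemin vs IRI and -0.31 in IRI+Hemin vs Hemin. The cause was not tested for any of these.

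The replicate number did not pair the arrays: deviations of same-numbered arrays correlated with a median r of -0.03 (range -0.37 to 0.21, 40 pairs). With it as a block the counts were 19, 27, 19, 25, 20, 34, 17 and 1, in the order given above. Scan run could not be fitted as a block, since each group had a run of its own. Scan day as a block could not be fitted for comparisons across days. Signal near background limits Cdc2a, Ccnb1, Aurkb, Aurkc, Ccnb2-ps, Cdk2, Cdkn3 and Chek2.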
